A study of Mus musculus with 2 samples.

Results

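The genes that set the pace of G1 were followed on the arrays, 10 in all: the D-type cyclins Ccnd1, Ccnd2 and Ccnd3, the E-type cyclins Ccne1 and Ccne2, the pocket protein Rbl2, the transcription factor E2f1 and the CDK inhibitors Cdkn1b, Cdkn2a and Cdkn2b. They were chosen by name, and all probes other than control probes that carry one of these symbols were taken, whatever their signal. These were 15 probes of 10 genes, out of 35774 probes with a symbol for 28233 genes. RNA came from immortalized mouse embryonic fibroblasts (MEF) of a C57BL/6 x B6:129 Ola background with floxed THOC5 alleles and the tamoxifen-activated recombinase Rosa26ERT2 Cre. All 4 samples carry both of these alleles. Control cells (M4040), which the labels call wildtype, had no tamoxifen, and THOC5 knockdown cells (M4041) had tamoxifen for 2 d per the labels. According to the methods of the study, tamoxifen was given at 10 µM for 24 h and was followed by 24 h in growth medium, by 24 h without serum and then by 20% serum. Each array held the unstimulated sample in Cy3 and the sample after 1 h of fetal calf serum (FCS) in Cy5. The dyes were not swapped, so an effect of dye on a probe and an effect of serum cannot be told apart. The controls had no tamoxifen, so an effect of tamoxifen or of Cre activity and an effect of THOC5 loss cannot be told apart.

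Fibroblasts kept without serum usually rest before S phase, and whether the cells of this study did was not measured here. Serum growth factors raise D-type cyclins, which bind CDK4 and CDK6, and later E-type cyclins, which bind CDK2. These kinases phosphorylate the retinoblastoma family, which includes Rbl2 (p130), and release E2F transcription factors such as E2f1, which switch on the genes of DNA replication. CDK inhibitors hold this back: Cdkn1b encodes p27Kip1, Cdkn2b encodes p15Ink4b, and Cdkn2a encodes both p16Ink4a and, from another first exon and reading frame, p19Arf, which stabilizes p53. In fibroblasts most of these genes respond hours after serum, so 1 h is an early time for them. THOC5 is a subunit of the THO complex, which takes part in the packaging, 3′ processing and export of mRNA.

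Each condition had 1 array, so no replicate spread, standard error or p-value between conditions can be given. Serum ratios below are log2 of Cy5 over Cy3 processed signal within an array, and their error is the scanner software's own error for that spot, which was 0.20 to 0.23 log2 for the probes that represent the genes. This error covers 1 spot and leaves out differences between cultures. Between arrays, the level is log2 of THOC5 knockdown over control in one dye, after the arrays were brought to the same mean signal distribution (Aquantile). This scaling keeps the ratio within an array. The levels of a probe before and after serum therefore differ by the difference of its serum ratios. A gene is called changed here only in the sense that its values are 2-fold or more apart. Thoc5 itself had signals of 4808 and 3047 in control cells (unstimulated, then serum) and of 545.6 and 455.1 in THOC5 knockdown cells, and after scaling was lower by -2.83 and -2.43 log2. Fos, an immediate early gene, was at 5.71 log2 after serum on the control array and 6.55 on the knockdown array, and Myc, which feeds into the cyclin genes, at 1.98 and 0.98. In bulk RNA, fewer cells that express a gene and less RNA per cell cannot be told apart.

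Of the 15 probes, 14 were well above background in all 4 channels, and no spot of theirs was saturated. A gene was represented by its brighter probe where it had 2. Levels of different probes are not compared with each other, since each 60-base probe binds with its own strength. All 10 genes had such a probe, so none dropped out of a count. The array's annotation places every probe on a transcript of its gene, with positions on mm9; whether a probe lies in coding sequence or a UTR was not determined here.

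One gene of the 10 stood apart, Cdkn2b, and it is shown here by its probes and promoter. Both probes lie on the minus strand of chromosome 4, with 384 bases between them. The first 30 bases of each are given, at chr4:88952306-88952335 for the brighter and chr4:88952750-88952779 for the dimmer, to show that they are separate sequences. They are printed in lower case throughout because no motif was sought in them.
Cdkn2b brighter probe: ccagtgatgaattgtagtggtagcaggtta
Cdkn2b dimmer probe: ttgagcctcaccttgaagccaaggggatca

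The 120 bases before the start of Cdkn2b in RefSeq on GRCm38.p6, at chr4:89311033-89311152 on the minus strand, hold the palindrome TGACGTCA, the full letters of a cAMP response element (CRE), in capitals.
Cdkn2b promoter: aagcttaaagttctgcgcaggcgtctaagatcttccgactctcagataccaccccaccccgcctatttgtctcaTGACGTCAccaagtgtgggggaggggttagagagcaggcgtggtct

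This palindrome begins 46 bases before the start site. Of 32851 promoter windows of the same length (250 bases before to 50 after a start), 1.79% hold it, and among the 9 windows matched to 7 of the 10 genes (Ccnd3, Ccne1, Cdkn1b, Cdkn2a, Cdkn2b, E2f1 and Rbl2) it was in that of Cdkn2b. A GC box (GGGCGG on either strand) was in all 9, against 35.66% of all windows. An E2F site, sought on both strands as TTTGGCGC, TTTCGCGC, TTTCCCGC or TTTGCCGC, was in 2.26% of all windows and in 1 of the 9, a window of Cdkn2a, 99 bases before its start. The FoxO letters GTAAACA were in 3.65% of all and in 1 window, of Ccnd3. These are matches of letters and not measured sites, and factor binding was not measured.

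Cdkn2b, the INK4 inhibitor of CDK4 and CDK6 that is known as a target of TGF-β, fell to 0.427 times its level after 1 h of serum in control cells. Its signal was 17203 in unstimulated and 7348 in serum-treated control cells, and 9355 and 8804 in THOC5 knockdown cells. These signals are not scaled between arrays. After scaling, the log2 levels in the same order were 13.91, 12.68, 13.36 and 13.27, so that control cells held both the highest and the lowest value and knockdown cells lay between them. The serum ratio was -1.23 log2 (error 0.23) on the control array and -0.09 (error 0.20) on the knockdown array. The difference was 1.14 log2 with a combined error of 0.31. Only 1.4% of all genes had a lower ratio on the control array, and 99.2% had a smaller difference between the arrays. Compared between arrays, the level in knockdown cells was -0.56 log2 against control before serum and 0.58 after it, so that the order of the arrays turned within 1 h.

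The second Cdkn2b probe followed the first in control cells and less closely in knockdown cells. It read 2454 before and 1019 after serum in control cells, a ratio of -1.27 log2. In THOC5 knockdown cells it read 1560 and 1111, a ratio of -0.49. The 2 probes thus gave nearly the same fall in control cells, and the second left a smaller difference between the arrays, 0.78 log2, which does not reach 2-fold.

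**Figure D1:**
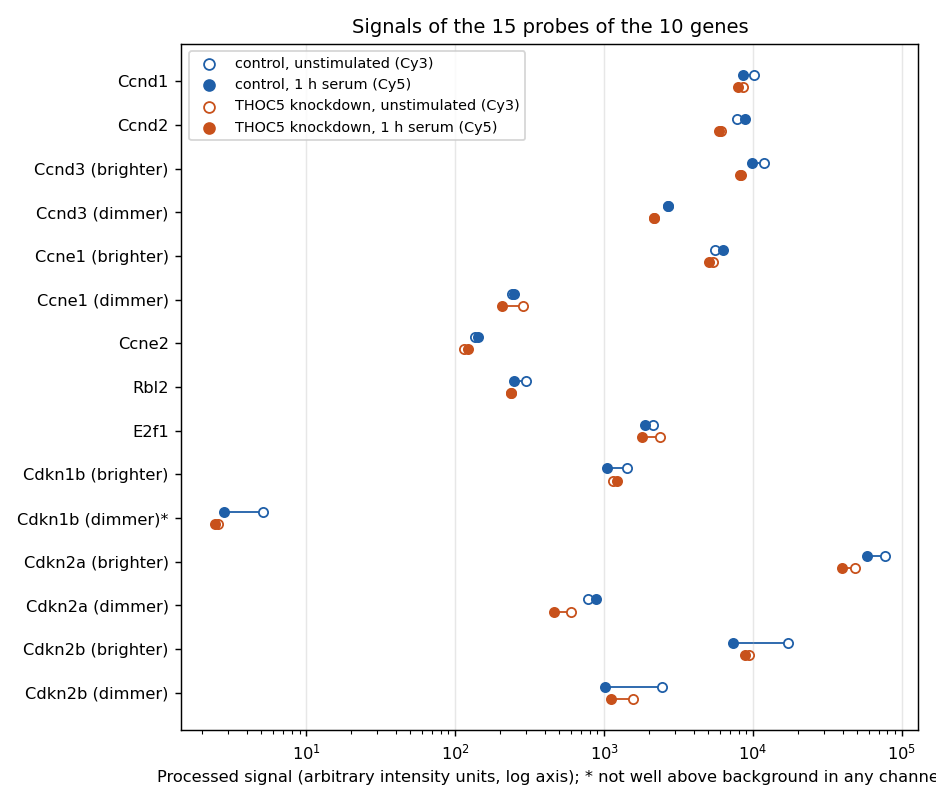
Processed signal (intensity, log axis, not scaled between arrays) of each of the 15 probes, with open circles for unstimulated (Cy3) and filled circles for 1 h serum (Cy5), blue for the control array and orange for the THOC5 knockdown array. The longest blue lines among probes above background are those of Cdkn2b (17203 to 7348 for the brighter probe), while positions of different probes along the axis are not comparable.

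Set against all genes, 1 of the 10 (Cdkn2b, lower) was 2-fold or more apart after serum on the control array, where 5.18% of 18770 genes well above background were. On the knockdown array 0 of 10 were, against 1.86% of 18532 genes. With a 1.5-fold threshold the counts of the 10 genes stayed at 1 and 0, beside 13.8% and 5.92% of all genes. Serum ratios that differed between the arrays by 1 log2 or more were seen for 1 of the 10, again Cdkn2b, and for 2.62% of 18006 genes. The count was 0 with the mean over all probes of a gene (Cdkn2b at 0.96), with log ratios scaled to one spread (0.93) or with the knockdown ratios lowered by the spike-in difference (0.90). For a difference of 1.5-fold the count was also 1, and 9.21% of all genes reached it. A single gene of 10 is a description beside these shares. On the control array 7 of the 10 ratios were below 0, where 53.9% of all genes were. Their median was -0.25 log2, and that of all genes was -0.03. Without dye normalization 8 of 10 were below 0 on the control array, and the median was only -0.13, with -0.01 for all genes. On the knockdown array 8 of 10 were below 0, where 52.8% of all genes were, with a median of -0.07 against -0.02 for all genes. Without dye normalization 5 of 10 were below 0 on that array, and 6 of 10 lay below the median of all genes with it.

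**Figure D2:**
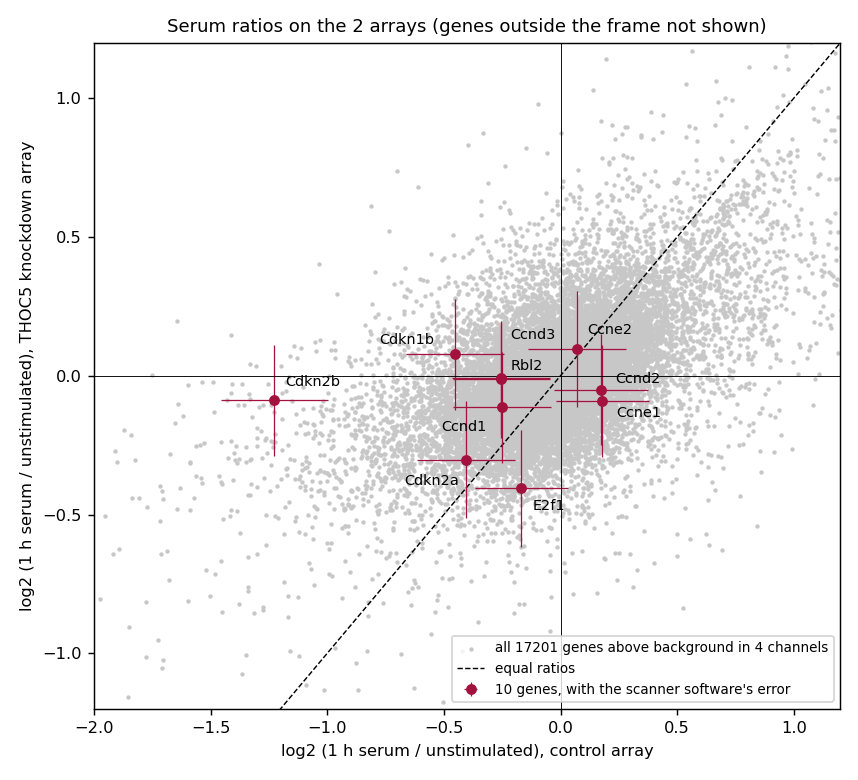
Serum log2 ratio (1 h serum over unstimulated) on the control array (x axis) against that on the THOC5 knockdown array (y axis), for 17201 genes well above background in all 4 channels (grey) and the 10 genes (red, bars are the scanner software's error). Cdkn2b lies at -1.23 on the control array and -0.09 on the knockdown array, and the other 9 lie between -0.45 and 0.18 on the control array.

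The D-type cyclins, the first cyclins that mitogens raise, did not rise at 1 h: the highest ratio of their 4 probes was 0.17 log2. Ccnd1, which is induced by mitogens through AP-1 and MAP kinase signalling, read 10188 before and 8566 after serum in control cells, and 8594 and 7947 in knockdown cells. Its serum ratios were -0.25 (error 0.21) and -0.11 (error 0.20). Both are slightly below 0, about the size of the error of 1 spot or less. The probe lies at chr7:152116202-152116261.

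Ccnd2, known as a target of Myc and of FoxO repression, had signals of 7850 and 8854 in control cells and of 6122 and 5910 in knockdown cells. Its ratios were 0.17 and -0.05, of opposite sign and each within its error of 0.20. After serum its level in knockdown cells was -0.26 log2 against control. The probe is at chr6:127098696-127098755.

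Ccnd3, the D-type cyclin with the broadest expression in resting and differentiated tissue, has 2 probes with 252 bases between them on chromosome 17. The brighter, at chr17:47736579-47736638, read 11791 and 9873 in control cells and 8291 and 8240 in knockdown cells, which gives ratios of -0.26 and -0.01. The dimmer, at chr17:47736267-47736326, gave 0.01 and -0.00, with signals of 2695 and 2707, then 2157 and 2156. The fall seen with the brighter probe in control cells was therefore not seen with the other, and it exceeds the error of 0.21 by little.

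The E-type cyclins act later, at the G1 to S transition, and are themselves E2F targets. Ccne2 gave the lowest-signal probe above background here, with 136 and 142 in control cells and 114 and 122 in knockdown cells (chr4:11131423-11131482). All 4 of its comparisons were within 0.10 log2 of 0. Its probe is only 15% G and C, where those of the other genes range from 30% to 51.7%.

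Ccne1 has 2 probes, with 2613 bases of genome between them on the minus strand of chromosome 7. Only 24 bases of the brighter are placed by the array's annotation, at chr7:38882937-38882960. The first 30 bases of the dimmer are at chr7:38885604-38885633, and both are shown because the probes gave different ratios in knockdown cells.
Ccne1 brighter probe: gcatgtcctgccttcatgaactcttatttt
Ccne1 dimmer probe: ataaaaacacttttacagcttattgggatt

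With the brighter probe, Ccne1 was at 5520 and 6248 in control cells and at 5417 and 5085 in knockdown cells. These are ratios of 0.18 and -0.09, each within the error of 0.20. The dimmer read 241 and 248, then 285 and 205, ratios of 0.04 and -0.48. Both probes placed unstimulated knockdown cells above unstimulated control cells, by 0.30 and 0.47 log2 after scaling, and both gave a lower serum ratio on the knockdown array, by -0.27 and -0.52.

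Rbl2 (p130), which with E2F4 represses cell cycle genes in resting cells, had low signals of 297 and 249 in control cells and 238 and 235 in knockdown cells (chr8:93647120-93647179). Its serum ratios were -0.25 and -0.01. The difference of 0.24 is within its combined error of 0.29.

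E2f1, the activator that free cyclin-dependent kinase activity releases and that also drives its own gene, read 2130 and 1896 in control cells and 2379 and 1795 in knockdown cells (chr2:154385798-154385857). The ratios were -0.17 and -0.41, and the second is the lowest on the knockdown array among the probes that represent the 10 genes. Between arrays E2f1 was higher in knockdown cells in both states, by 0.47 log2 before serum and 0.23 after. Of the 10 genes it had the highest value of knockdown over control before serum.

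Cdkn1b (p27Kip1), which inhibits cyclin E and CDK2 in resting cells and is a FoxO target, read 1421 before and 1038 after serum in control cells. In knockdown cells it read 1156 and 1219. The ratio was -0.45 (error 0.21) in control cells and 0.08 (error 0.20) in knockdown cells, which is a difference of 0.53. Before serum the 2 arrays gave the same scaled level, with 0.00 log2 between them. After serum knockdown cells were 0.53 higher, which restates that difference. No fold is given for its other probe (chr6:134873606-134873665), which was not well above background in any channel, so this pattern rests on 1 probe (chr6:134875424-134875483).

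Cdkn2a gave the brightest probe of the set. Its 2 probes, 78 bases apart on the minus strand of chromosome 4, are both listed for p16Ink4a and for p19Arf transcripts, so neither product can be told from the other. Their first 30 bases, at chr4:88920435-88920464 (brighter) and chr4:88920573-88920602 (dimmer), are shown because the probes disagree.
Cdkn2a brighter probe: ggcatgagaaactgagcgaaggcggccgcg
Cdkn2a dimmer probe: cttctagcgatgctagcgtgtctagcatgt

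The brighter read 76945 and 58086 in control cells and 48732 and 39523 in knockdown cells, ratios of -0.41 and -0.30. The dimmer read 783 and 884, then 603 and 459, ratios of 0.17 and -0.39. The probes had opposite signs in control cells and the same sign in knockdown cells. Without the authors' dye normalization the brighter probe's ratios were -0.07 in control and 0.01 in knockdown cells, so its fall depends on that step at the top of the signal range. Both probes read lower in knockdown than in control cells in either state, by -0.46 and -0.36 log2 for the brighter and by -0.10 and -0.66 for the dimmer.

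Between the arrays, 0 of the 10 genes were 2-fold or more apart, either before serum (6.34% of 19044 genes) or after it (6.67% of 18665 genes). At 1.5-fold the counts were again 0 and 0, while 14.4% and 15.6% of all genes passed. The median of the 10 was -0.05 log2 before serum and 0.10 after, and that of all genes was -0.01 and 0.00. The 2 genes with the highest values after serum were both CDK inhibitors, Cdkn2b at 0.58 and Cdkn1b at 0.53. Cdkn2a, which also encodes an inhibitor, was at -0.36.

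**Figure D3:**
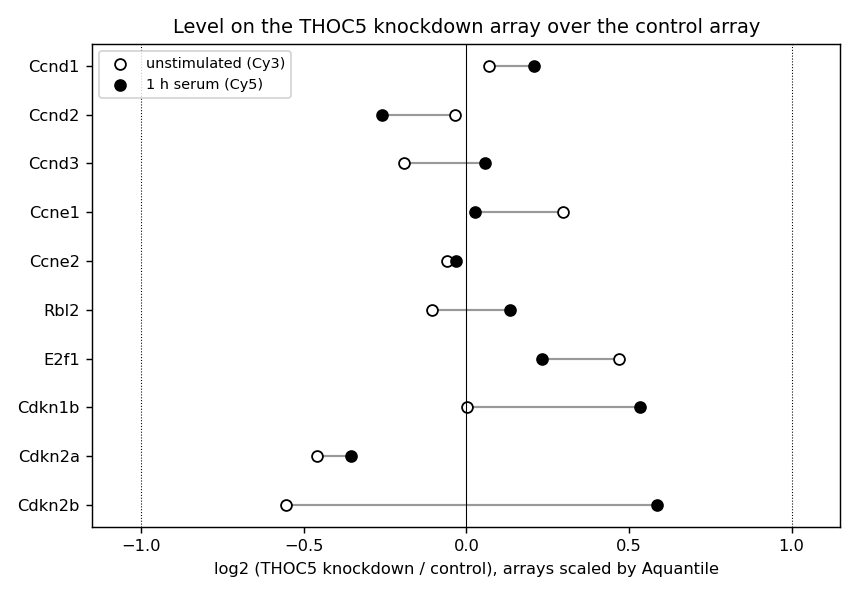
Log2 level on the THOC5 knockdown array over the control array for the brighter probe of each gene, after Aquantile scaling, with open circles for unstimulated and filled circles for 1 h serum samples and dotted lines at 2-fold. Cdkn2b crosses from -0.56 to 0.58 and Cdkn1b moves from 0.00 to 0.53, and no circle passes a dotted line.

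Around these genes stand 36 other genes of the G1 to S pathway (kinases, further inhibitors, pocket proteins, E2F and DP factors, ubiquitin ligase subunits and the MuvB core), all on the array. After serum 2 of 36 rose 2-fold or more and 0 fell on the control array, and the same 2 rose on the knockdown array: Cdkn1a and Ccno. Of all genes 5.18% and 1.86% were 2-fold apart in either direction on these arrays, so the count on the control array is near the share of all genes. Cdkn1a (p21Cip1), an inhibitor that p53 and serum both induce, read 252 and 1789 in control cells and 350 and 733 in knockdown cells. Its ratios were 2.83 and 1.07 log2, so the rise was smaller by -1.76 on the knockdown array. In control cells this inhibitor rose while Cdkn2b fell. No fold is given for its other 2 probes, of which 1 was well above background only in 2 channels and the other in none. Ccno, a cyclin of multiciliated cells, read 82.3 and 347 in control cells and 76.5 and 206 in knockdown cells, ratios of 2.08 and 1.43.

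Falls of 1.5-fold or more in this list on the control array were seen for Cdkn2c (p18Ink4c), at -0.71 log2, and E2f2, at -0.71, and for 0 genes on the knockdown array, where 13.8% and 5.92% of all genes were 1.5-fold apart in either direction. Cdkn2c was named after its values were seen. E2f2, an activator like E2f1, read 438.5 and 267 in control cells and 509.5 and 448 in knockdown cells, and after serum was 1.005 log2 higher in knockdown cells, which is 2-fold. Cdkn1a was the other gene of the list 2-fold apart after serum, at -1.002, beside 6.67% of all genes. Both are at the threshold, and with normexp and loess they were at 0.95 and -0.98, short of 2-fold. The medians of the list were -0.03 and -0.07 for the serum ratios, near those of all genes.

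For E2F, 20 target genes of DNA replication were measured as a readout of E2F activity, and all were well above background. None passed 1.5-fold in any of the 4 comparisons. Of all genes 13.8% (control) and 5.92% (knockdown) did in the serum ratios, and 14.4% (before serum) and 15.6% (after) did between arrays. On the control array 13 of 20 were below 0 after serum, with a median of -0.04 log2, where 53.9% of all genes were below 0, and without dye normalization 8 of 20 were. All 20 were below 0 on the knockdown array, with a median of -0.24, where 52.8% of all genes were below 0. Without dye normalization 18 of 20 were, with a median of -0.14, and with all knockdown ratios lowered by the spike-in difference the median was -0.49. Before serum 17 of 20 were higher in knockdown than in control cells, with a median of 0.20, and after serum 11 of 20 were, with a median of 0.01. Of all genes, 9330 of 19044 were above 0 before serum and 9357 of 18665 after it. E2f1 had the same signs (0.47 before serum, then a ratio of -0.41). Both values use the unstimulated signal of the knockdown array. A higher reading there alone raises the first and lowers the second, so they are not separate results. Among the genes with the largest values were Orc1, a subunit of the origin recognition complex, at 0.55 after serum in control and -0.00 in knockdown cells, and Chaf1a, a histone chaperone subunit, at 0.54 knockdown over control before serum. Cdc6, a loader of the replicative helicase, ran the other way, at -0.38 before and -0.49 after serum. These genes share 2 arrays and 1 normalization and are not replicates of a condition.

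**Figure D4:**
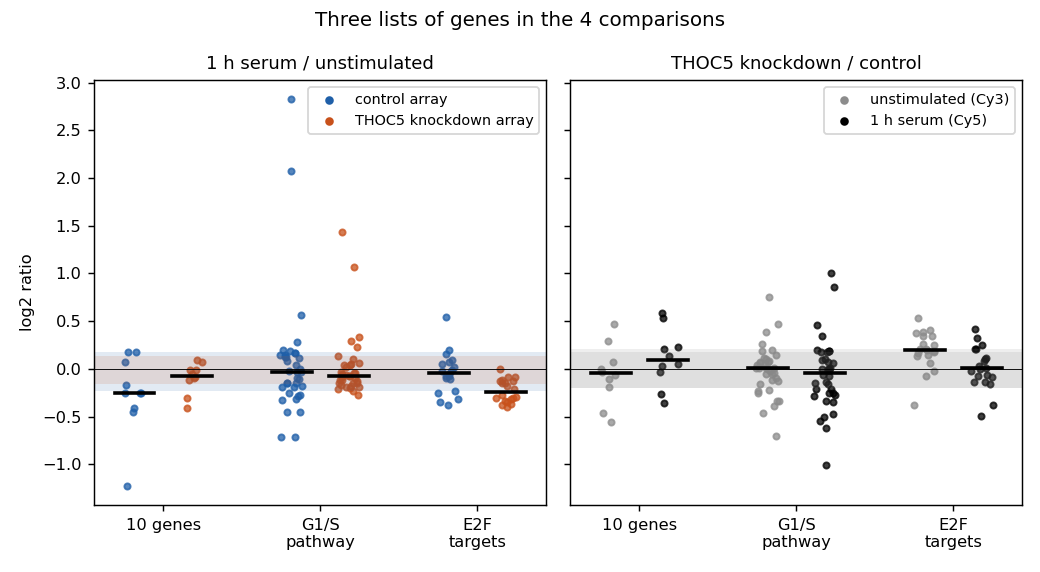
Log2 ratios of the 10 genes, of 36 other G1 to S pathway genes and of 20 E2F target genes, for serum over unstimulated (left) and THOC5 knockdown over control (right), with 1 point a gene, black bars at the medians and shading over the middle 50% of all genes. The E2F targets on the knockdown array lie at or below 0 with a median of -0.24, and the 2 highest pathway points in control cells are Cdkn1a (2.83) and Ccno (2.08).

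Markers of cycling cells (Mki67, Top2a, Ccnb1, Cdk1, Aurka and Bub1) were well above background in every channel, with signals of 1493 to 8746. In any comparison 0 of 6 passed 1.5-fold, where 5.92% to 15.6% of all genes did, depending on the comparison. Their median in unstimulated knockdown over control cells was 0.20 log2, next to the 0.20 of the E2F targets. Their serum ratios on the knockdown array had a median of -0.13, with the lowest at -0.40. Of these ratios 4 of 6 were below 0, where 52.8% of all genes were. The part of these markers in the values of E2f1 and its targets was not tested. The 10 fibroblast markers were well above background in all channels. Their summed signal was 430185 to 470528 in control and 347301 to 388809 in knockdown cells, sums that are not scaled between arrays, whose 75th percentiles in Cy3 were 1062.5 and 861.8. After scaling, 2 of the 10 were 2-fold lower in unstimulated knockdown cells, where 6.34% of all genes were 2-fold apart in either direction. Of markers of other cell types, 3 of 5 epithelial genes (sum 204 to 260, Cdh1 below background) were well above background in every channel. So were 3 of 4 endothelial genes (sum 887 to 1136, Tek below background) and 2 of 5 blood genes (sum 6574 to 8921, Lyz2 below background). Most of the endothelial sum was Kdr (804.9 to 1015), and most of the blood sum was Itgam (6314 to 8700). The part of other cells, or of the lower fibroblast markers, in the results was not tested.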

How the data were processed

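Total RNA of 2 samples per array was labelled with Cy3 and Cy5 and hybridised to 2 dual-color Agilent arrays. Per the file headers, the processed signals that the authors deposited are intensities from Agilent Feature Extraction 10.7.3.1, after background subtraction and linear and LOWESS dye normalization within each array, with probe positions on mm9. The deposited log10 ratio is Cy5 over Cy3, and its deposited error was multiplied to the log2 scale. The authors also deposited a series table of log10 values without sign, which served only as an alternative, with the scanner's sign. All table columns were mapped to a sample (0 left over).

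From there, outlier spots were left out (239 and 234 of 43020 spots), spots of a probe were averaged on log2, and each gene was represented by the probe with the highest mean signal. Errors of both arrays were combined as the root of the sum of squares. Arrays were brought together by Aquantile (limma 3.58.1, R 4.3.3; Python 3.11.15, numpy 2.4.6, pandas 2.3.3), and the code was tested on simulated data. A gene counted only when well above background in at least 1 channel compared (62.1% to 64.4% of spots were, per channel). Among the 10 copies of a repeated probe, log2 ratios had a median SD of 0.028 on the control and 0.031 on the knockdown array. The threshold was 2-fold, with 1.5-fold as an alternative.

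The genes and lists were chosen with earlier results of these data known. All 10 genes were named with every probe. Of the pathway list, those 2-fold apart in a comparison were named, and of the E2F targets the 4 with the largest values, of which 1 is not reported here. One probe was renamed through its accession. The other alternatives were the background correction, dye normalization, scaling between arrays, signal floor, filter on dim probes, rule for several probes and a correction by spike-in probes. Promoter windows are those of RefSeq, GRCm38.p6. The number of arrays limits the precision.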

Additional observations from a re-analysis of the deposited data

Results flagged for a closer look

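In 3 of the 10 genes, the serum ratio pointed one way on the control array and the other way on the THOC5 knockdown array, as it did for 31.2% of 18006 genes. Without dye normalization these were 7 of the 10 genes and 29.7% of all. With 1 array on each side, none of these differences was tested. For Ccnd2 the ratio on the knockdown array minus that on the control array was -0.22 log2. For Ccne1 it was -0.27, and its second probe, with a ratio just above 0 in control cells, differed by -0.52. Both values of Ccnd2 and of the brighter Ccne1 probe are within the error of a spot. For Cdkn1b the difference was 0.53, from -0.45 in control to 0.08 in knockdown cells, and 0.29 when the knockdown ratios, like those of all genes on that array, were lowered by the spike-in difference, which put its knockdown ratio at -0.17, the same sign as in control cells.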

How the results depend on the processing

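No paired analysis was possible because each condition had 1 array, and for the same reason no replicate could be left out. Of the 10 genes, the number 2-fold apart was the same under every alternative run in the serum comparisons and in the comparisons between arrays. The count of genes whose serum ratios differed by 1 log2 or more fell from 1 to 0 under 3 alternatives: the mean over all probes of a gene (Cdkn2b at 0.96), log ratios scaled to one spread (0.93) and the knockdown ratios lowered by the spike-in difference (0.90). That difference was 0.24 log2 over 10 spike-in probes and moved the median of all genes on the knockdown array to -0.26, since it lowers every gene alike. Values of the 10 genes moved by more than the scanner's error in 14 of 480 cases, 11 of them knockdown ratios. The spike-in correction moves all 10 knockdown ratios by itself, since 0.24 log2 is more than their errors. Small values did change sign, as those of Ccnd1 (-0.36 to 0.01), Ccnd3 (-0.25 to 0.03) and Rbl2 (-0.26 to 0.00) on the knockdown array. Cdkn2b after serum in knockdown over control ranged from 0.51 to 0.60, on both sides of 1.5-fold. In knockdown over control cells after serum, both E2f2 (0.95 to 1.02) and Cdkn1a (-1.01 to -0.98) lay on both sides of 2-fold. On the knockdown array the serum ratio fell short of 2-fold for Cdkn1a with the spike-in correction (0.82) and for Ccno with normexp and loess (0.99). The E2F targets below 0 on the knockdown array numbered 18 to 20 of 20 under all alternatives.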
